A study of Mus musculus with 9 samples.

Results

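The 10 genes described here encode the machinery by which nucleated cells display peptides from their own proteins on MHC class I molecules. They were chosen by name, as the rows of the deposited count table called H2-K1, H2-D1, H2-T23, B2m, Tap1, Tap2, Tapbp, Psmb8, Psmb9 and Nlrc5, and all 10 were found among the 46078 genes of the table. Class I heavy chains pair with beta-2-microglobulin, and the peptides they hold are cut by the proteasome, carried into the endoplasmic reticulum by the TAP transporter and fitted to the heavy chain with the help of tapasin. Interferons raise most of these genes, and the proteasome then takes up the inducible subunits Psmb8, Psmb9 and Psmb10 in place of the constitutive Psmb5, Psmb6 and Psmb7. In endothelium, class I display is one of the ways by which vessels are seen by circulating T cells and natural killer cells.

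RNA-seq was done on endothelial cells (ECs) sorted from the bone marrow (BM) of normal wild type (wt) B6 mice as CD45-Ter119-CD31+ cells, separated into Sca-1+ and Sca-1- fractions. The labels give neither the age of the mice nor whether cells of several animals were pooled. There were 4 Sca-1+ libraries, named here by the end numbers of their labels (7, 13, 15 and 19), and 5 Sca-1- libraries (8, 10, 14, 16 and 22). No label says that every library came from a different mouse, so the p-values measure the spread between these libraries, and the titles of libraries 15 and 16, 1 of each fraction, share a further number whose meaning is not given. All 9 are labelled wild type B6, but the titles differ in a mark: those of libraries 8, 15, 16 and 19 bear wt, those of 13, 14 and 22 bear CD452, that of library 10 has these digits without CD, and that of library 7 has neither. The study took the fractions to stand for ECs of arteries and arterioles (Sca-1+) and of sinusoids (Sca-1-), and the comparison addresses how they differ.

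Total counts per library lay between 21581653 and 25959818, at which 3 counts correspond to 0.0996 to 0.209 CPM (counts brought to 1 library size with TMM factors). Ly6a, which encodes Sca-1, was at 874 to 1306 CPM in the Sca-1+ and at 0.24 to 1.49 CPM in the Sca-1- libraries. Most defining markers of the labelled cell type were low in the Sca-1- fraction. Cdh5 lay between 2.44 and 13.1 CPM there against 235 to 297 CPM in the Sca-1+ libraries, and 21 of 25 general endothelial genes were higher in Sca-1+ cells. Among these was Emcn (endomucin), an endothelial sialomucin found on sinusoids, at 855 ± 163 CPM in Sca-1+ (SD, n = 4) against 19.2 ± 9.85 CPM in Sca-1- cells (SD, n = 5). In its staining the study took Emcn-positive vessels as sinusoids and Emcn-negative ones as arteries and arterioles. At the RNA level these values go against a reading of the Sca-1- libraries as sinusoidal ECs. They also go against a reading of the Sca-1+ libraries as arterial and arteriolar ECs alone. Of the other 4 of the 25 genes, Pecam1 (CD31) and Esam did not pass the test, and Vwf and Fli1 were lower in Sca-1+ cells. The 6 megakaryocyte markers summed to 17708 to 62330 CPM in the Sca-1- libraries against 22.1 to 60.1 CPM in the Sca-1+ libraries. Both fractions are therefore named here by their gate. Libraries 8 and 10 had the lowest TMM factors (0.671 and 0.581), and the running numbers that open the labels do not overlap between the fractions, so that a batch that follows them and the fraction cannot be told apart. In such bulk libraries fewer cells of a type and less RNA per cell cannot be told apart either.

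Most of the genes lie close together. In GRCm38 with GENCODE M21 annotation, 8 of the 10 are on chromosome 17, in the mouse MHC. The genes Psmb9, Tap1, Psmb8 and Tap2 follow each other within 34.3 kb, between positions 34181987 and 34216321. B2m lies apart from them on chromosome 2 (122147686 to 122153083, plus strand) and Nlrc5 on chromosome 8 (94434356 to 94527272, plus strand). To show the control region of a heavy chain gene beside that of its light chain, the bases just before the RefSeq start of H2-K1 (chr17:34000348-34000527, minus strand) and of B2m (chr2:122147507-122147685, plus strand) are printed from the GRCm38.p6 table, 5′ to 3′. Capitals mark matches to 4 motifs, searched on both strands: an interferon response element (GAAANNGAAA or GAANNGAAA), a kappaB element (GGGNNNNNCCC), a cAMP response half-site (TGACG) and a CCAAT box (CCAAT). No marked match overlaps another.
H2-K1: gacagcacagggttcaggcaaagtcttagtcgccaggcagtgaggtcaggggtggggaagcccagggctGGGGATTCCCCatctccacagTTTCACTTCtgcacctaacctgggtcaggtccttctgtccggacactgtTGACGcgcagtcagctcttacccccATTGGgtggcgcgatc
B2m: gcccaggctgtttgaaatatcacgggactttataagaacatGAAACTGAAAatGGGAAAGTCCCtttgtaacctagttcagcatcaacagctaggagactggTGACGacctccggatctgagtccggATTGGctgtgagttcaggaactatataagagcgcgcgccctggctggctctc

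Both regions held all 4 motifs, in the same order apart from the interferon and kappaB elements, which changed places. Among the 250 bases before the start, an interferon response element was found in 4 of the 8 members with a promoter in the RefSeq table (H2-K1, H2-D1, H2-T23 and B2m), against 8.82% of 32851 promoters. The kappaB element was found in 5 of the 8 (12.2% of all promoters), the half-site in 5 (17.8%) and the CCAAT box in 7 (33.8%). Tap1 and Psmb9 overlap at their starts on opposite strands. Their kappaB, half-site and CCAAT matches were first at -76, -86 and -222 for Tap1 and at -160, -144 and -8 for Psmb9. These are spaced alike in mirror order, so they may be the same sites counted for both genes. The promoters of H2-K1 and H2-D1 were alike over 177 aligned bases, of which 161 were identical. A match is a description of the letters only. Tap2 and Nlrc5 were not in that table.

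All 10 genes had counts high enough for edgeR's filterByExpr, and the quasi-likelihood F-test was fitted over them and the rest of the 15937 genes that passed. Of the 10, 6 were higher in Sca-1+ ECs (H2-K1, Tap2, Psmb8, Psmb9, Tap1 and Tapbp) at an adjusted p under 0.05, 0 were lower, and 4 (H2-D1, B2m, Nlrc5 and H2-T23) did not pass the test. Among all 15937 genes tested, 23.3% were higher and 21.4% lower. The same 6 were also the members in which every Sca-1+ library lay above every Sca-1- library, which held for 24.8% of all genes tested, while 18.8% were separated the other way. These 6 were thus also apart among the libraries marked wt and among those marked CD452 or with its digits. The median log2 fold change of the members (Sca-1+ over Sca-1-) was 1.24, beside 0.07 for all genes tested. These directions, and which members overlap, are relative to TMM scaling, and all 10 fitted values were negative when libraries were scaled to general endothelial genes. No member had an unadjusted p under 0.05 for a lower level (edgeR), and DESeq2 and limma voom also called 0 lower (1 member, by DESeq2, had an unadjusted p under 0.05).

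**Figure D1:**
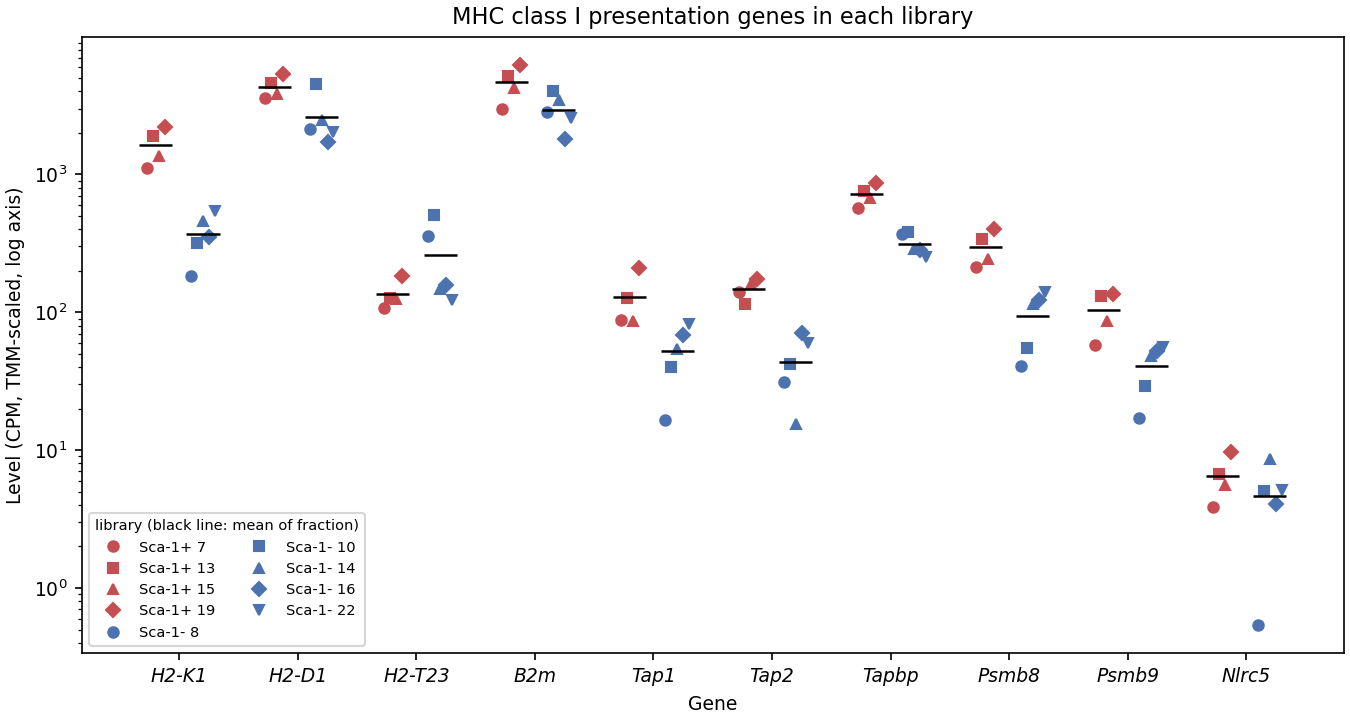
Level of each of the 10 genes in every library (CPM on a log axis), with Sca-1+ libraries in red, Sca-1- libraries in blue, a marker shape per library and a black line at the mean of each fraction. With TMM scaling, the fractions are apart for H2-K1, Tap1, Tap2, Tapbp, Psmb8 and Psmb9 and overlap for H2-D1, H2-T23, B2m and Nlrc5.

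Among the 3 heavy chains of the members, H2-K1 (ENSMUSG00000061232, chromosome 17 from 33996017 to 34000347, minus strand), one of the classical class I molecules that present peptides to CD8 T cells, differed most. Its level was 1105, 1902, 1361 and 2202 CPM in Sca-1+ libraries 7, 13, 15 and 19. In Sca-1- libraries 8, 10, 14, 16 and 22 it was 184, 315, 455, 352 and 543 CPM. The lowest Sca-1+ library was thus above the highest Sca-1- library. The fraction means of 1643 ± 500 CPM (SD, n = 4) and 370 ± 137 CPM (SD, n = 5) gave a log2 fold change of 2.15 (SE 0.35, adjusted p = 0.00082 by the quasi-likelihood test of edgeR).

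H2-D1 (ENSMUSG00000073411, chromosome 17 from 35262730 to 35267499, plus strand) encodes the other classical heavy chain. It was counted at 3571, 4600, 3802 and 5342 CPM in the Sca-1+ libraries. In the Sca-1- libraries it was counted at 2138, 4555, 2471, 1720 and 2037 CPM. With TMM scaling, library 10 alone reached into the Sca-1+ range. Its TMM factor was the lowest (0.581), and its raw count of 65238 was below the lowest Sca-1+ count (104770 in library 7). The log2 fold change was 0.74 (SE 0.35, adjusted p = 0.11 from edgeR's test), and without library 10 it was 0.99 with an adjusted p of 0.013 from the same test.

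H2-T23 (ENSMUSG00000067212, chromosome 17 from 36029773 to 36032855, minus strand) encodes Qa-1, a class Ib molecule that shows signal peptides of other class I chains to natural killer cell receptors. It lay at 108, 126.1, 125.7 and 184 CPM in the Sca-1+ libraries. In the Sca-1- libraries it lay at 358, 508, 148, 156 and 122 CPM. Libraries 8 and 10 were high and the other 3 fell inside the Sca-1+ range. This was the only member with a fitted value below 0, a log2 fold change of -0.93 (SE 0.44, adjusted p = 0.11 from edgeR's test). Without libraries 8 and 10, an alternative chosen after the data were seen, the value was -0.07 (adjusted p = 0.79).

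B2m (ENSMUSG00000060802) encodes the light chain that every class I heavy chain needs to reach the surface. It was counted at 2969, 5181, 4257 and 6234 CPM in the Sca-1+ libraries. In the Sca-1- libraries it was counted at 2849, 3989, 3488, 1801 and 2570 CPM. With TMM scaling, Sca-1+ library 7 lay among the Sca-1- libraries, although its raw count of 87105 was above their highest (82207 in library 14). The difference did not pass the test (log2 fold change 0.66, SE 0.34, adjusted p = 0.13 from edgeR's test). The 5 other genes whose centred log2 CPM profiles over the 9 libraries were most like that of B2m were Cdc42ep2, Gm16587, Scmh1, Selp and Inpp1, with root mean square differences of 0.18 to 0.22 log2 units. Among the members, H2-D1 was nearest to B2m (0.24) and Tap2 farthest (1.05).

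Because the scaling of a library cancels when 2 genes of the same library are divided, 8 ratios were compared with an exact permutation test over every split of the 9 libraries into 4 and 5, two-sided, with p-values adjusted over the 8. The ratio H2-K1/B2m (log2 of CPM with 0.5 added) was -1.50 ± 0.10 (SD, n = 4) in Sca-1+ ECs. It was -3.03 ± 0.76 (SD, n = 5) in Sca-1- cells. There was thus 2.88-fold more H2-K1 relative to B2m in the Sca-1+ fraction, without overlap (exact p = 0.016, adjusted p = 0.032). H2-K1/H2-D1 was higher by 1.37 on the log2 scale in the same way (exact p = 0.016, adjusted p = 0.032). H2-D1/B2m differed by 0.15, within the spread between libraries (exact p = 0.4, adjusted p = 0.44). H2-T23/B2m was lower in Sca-1+ ECs, at -5.07 ± 0.24 (SD, n = 4) against -3.68 ± 0.75 (SD, n = 5), again without overlap (exact p = 0.024, adjusted p = 0.038). The heavy chains thus stood in different proportions to the light chain in the 2 fractions, for H2-K1 and H2-T23 in opposite directions and for H2-D1 without a detected difference. The adjusted p of H2-K1/B2m, H2-T23/B2m and H2-K1/H2-D1 was 0.057 to 0.086 (exact test) whichever of libraries 7, 13, 15 and 19 was left out. With 3 against 5 the smallest exact p is 0.018 before adjustment, so a call lost there does not show dependence on that library. The sizes of these differences owed much to Sca-1- libraries 8 and 10. Log2 H2-K1/B2m was -3.95 and -3.66 there, against -2.94, -2.35 and -2.24 in libraries 14, 16 and 22. In the same order, H2-T23/B2m was -2.99 and -2.97, against -4.55, -3.52 and -4.39. H2-K1/H2-D1 was -3.53 and -3.85, against -2.44, -2.29 and -1.91.

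**Figure D2:**
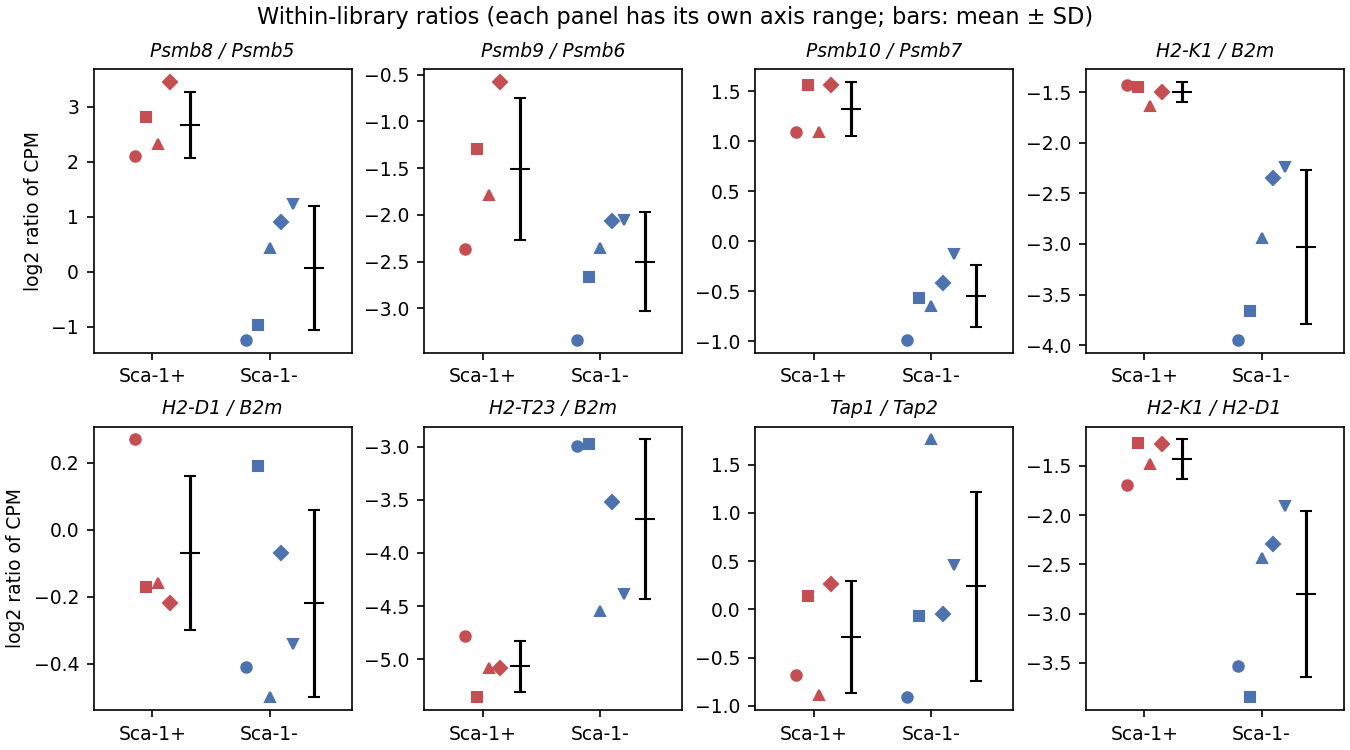
Log2 ratios of CPM of 8 gene pairs within each library, Sca-1+ in red and Sca-1- in blue with the marker shapes of the plot of levels, and the mean ± SD of each fraction in black. Psmb8/Psmb5, Psmb10/Psmb7, H2-K1/B2m and H2-K1/H2-D1 are higher and H2-T23/B2m is lower in every Sca-1+ library, while Psmb9/Psmb6, H2-D1/B2m and Tap1/Tap2 overlap.

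The peptide transporter and the loading factor were all higher in Sca-1+ ECs. Tap2 (ENSMUSG00000024339, chromosome 17 from 34203527 to 34216321, plus strand), one chain of the TAP transporter, was at 141, 114, 161 and 175 CPM in the Sca-1+ libraries. It was at 31.4, 42.3, 15.5, 70.7 and 59.5 CPM in the Sca-1- libraries. The lowest value was in library 14, and the log2 fold change was 1.75 (SE 0.38, adjusted p = 0.0041 from edgeR's test). Tap1 (ENSMUSG00000037321, chromosome 17 from 34187553 to 34197225, plus strand), the partner chain, was at 87.8, 126.1, 86.7 and 210 CPM in the Sca-1+ libraries. In the Sca-1- libraries it was at 16.5, 40.2, 53.8, 68.3 and 81.7 CPM. Sca-1+ libraries 7 and 15 lay just above Sca-1- library 22. The log2 fold change of Tap1 was 1.29 (SE 0.44, adjusted p = 0.034 from edgeR's test), and this call was lost when library 13 (adjusted p = 0.065), 19 (0.12), 10 (0.076) or 14 (0.067) was left out. The ratio Tap1/Tap2 did not differ detectably (-0.53 on the log2 scale, exact p = 0.44, adjusted p = 0.44) and ran from -0.91 in library 8 to 1.76 in library 14.

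Tapbp (ENSMUSG00000024308, chromosome 17 from 33915899 to 33929292, plus strand) encodes tapasin, which bridges TAP and the empty heavy chain. Its values in the Sca-1+ libraries were 574, 759, 674 and 862 CPM. Its values in the Sca-1- libraries were 367, 382, 289, 284 and 251 CPM. The fractions were well apart, with 717 ± 122 CPM in Sca-1+ ECs (SD, n = 4), against 315 ± 56.7 CPM in Sca-1- cells (SD, n = 5), and the log2 fold change of 1.19 had the smallest SE among the members (0.22, adjusted p = 0.0018 from edgeR's test). Unlike H2-K1, Tap1, Psmb8 and Psmb9, whose 2 lowest levels were in libraries 8 and 10, Tapbp was highest in these libraries among the Sca-1- fraction. Of the 10 genes of the peptide loading and trimming list, 5 were higher in Sca-1+ ECs and 1 was lower (all genes tested: 23.3% and 21.4%). The median log2 fold change of this list was 0.76. The genes outside the 10 members that passed were Tapbpl (2.34, SE 0.29), a tapasin relative that edits peptides, and Erap1 (1.72, SE 0.35), which trims them in the endoplasmic reticulum. Lnpep, an aminopeptidase of endosomes, was lower (-1.68, SE 0.48) and was highest in Sca-1- libraries 8 and 10 (33.6 and 28.4 CPM). Its call was lost under 4 of 21 alternatives. Among these were leaving out library 13 (adjusted p = 0.052 from edgeR's test) and leaving out libraries 8 and 10 (-0.80, adjusted p = 0.067 from the same test). The general chaperones Calr, Canx and Pdia3 did not pass the test (0.02, -0.31 and 0.29).

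The inducible proteasome subunits rose as well. Psmb8 (ENSMUSG00000024338, chromosome 17 from 34197721 to 34201454, plus strand), the inducible chymotrypsin-like subunit, was counted at 211, 339, 243 and 399 CPM in the Sca-1+ libraries. It was counted at 40.7, 54.7, 114, 122 and 140 CPM in the Sca-1- libraries. Libraries 8 and 10 were lowest, and the log2 fold change was 1.66 (SE 0.38, adjusted p = 0.0056 from edgeR's test). Psmb9 (ENSMUSG00000096727, chromosome 17 from 34181987 to 34187764, minus strand), the inducible caspase-like subunit, was counted at 57.7, 131, 86.8 and 135 CPM. Its Sca-1- values were 17.1, 29.4, 48.5, 52.3 and 55.7 CPM. Sca-1+ library 7 lay just above library 22, and the log2 fold change was 1.34 (SE 0.38, adjusted p = 0.015 from edgeR's test).

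The values of the constitutive proteasome lay close to 0. Of 14 genes of the constitutive 20S core, 0 were higher and 1 was lower (all genes tested: 23.3% and 21.4%). The median log2 fold change was 0.02 and the range -0.87 to 0.51. The count of 0 higher was the same by DESeq2 and limma voom, and no gene of the list had an unadjusted p under 0.05 for a higher level by any of the 3 tools. The 1 lower gene was Psmb5, the constitutive counterpart of Psmb8, at 45.2 ± 6.11 CPM in Sca-1+ ECs (SD, n = 4) against 82.7 ± 20.7 CPM (SD, n = 5) (log2 fold change -0.87, SE 0.23, adjusted p = 0.011 from edgeR's test). Scaled to library size alone, Psmb5 had a log2 fold change of -0.40 and lost this call (adjusted p = 0.19 from edgeR's test). The count of lower genes of the core was thus less stable than that of higher genes. It was 0 with library size alone, 3 by DESeq2 and 2 without libraries 8 and 10. Psmb7 was called lower by DESeq2 (-0.44, adjusted p = 0.026) and without libraries 8 and 10 (-0.51, adjusted p = 0.044 from edgeR's test). The ratio Psmb8/Psmb5 had a geometric mean of 6.38 in Sca-1+ ECs and of 1.05 in Sca-1- cells. This was a 6.07-fold difference without overlap (exact p = 0.016, adjusted p = 0.032). Its size owed much to Sca-1- libraries 8 and 10, where the log2 ratio was -1.24 and -0.97. It was 0.44, 0.91 and 1.23 in libraries 14, 16 and 22, and 2.10 to 3.45 in Sca-1+ ECs. Psmb10/Psmb7, the pair of the trypsin-like site, differed 3.67-fold (exact p = 0.0079, the smallest this design can give, adjusted p = 0.032). Psmb9/Psmb6 was 1.98-fold higher but overlapped in library 7 (exact p = 0.063, adjusted p = 0.085). The first 2 of these calls were lost without library 13, 15 or 19 (exact test, adjusted p = 0.071 each), and the last passed without library 7 (1.28 on the log2 scale, exact test, adjusted p = 0.048). Ratios here compare 1 gene pair between fractions, since the genes differ in length.

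In the list of the immunoproteasome and its PA28 cap, 5 of 7 genes were higher (Psmb8, Psmb9, Psmb10, Psme2 and Pomp) and 1 was lower. Among all genes tested, 23.3% were higher and 21.4% lower. The median log2 fold change of the list was 1.09. Psmb10, the third inducible subunit, had a log2 fold change of 1.5 (SE 0.25). Psme2, a chain of the interferon-inducible PA28 cap, had 1.09 (SE 0.23), and Pomp, which helps to assemble the proteasome, had 0.63 (SE 0.22). Psme3, which forms a nuclear cap of its own, was the lower gene at 71.1 ± 12.3 CPM in Sca-1+ ECs (SD, n = 4), against 243 ± 34.5 CPM in Sca-1- cells (SD, n = 5), a log2 fold change of -1.77 (SE 0.21). Psme2 and Pomp were named after their values were seen. The call of Pomp (adjusted p = 0.041 from edgeR's test) was lost under 14 of 21 alternatives, among them relative log expression scaling (0.052), upper-quartile scaling (0.054), no filter (0.063) and leaving out any 1 of libraries 7, 13, 15, 8, 10, 16 and 22 (0.057 to 0.11).

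Nlrc5 (ENSMUSG00000074151), the transactivator that binds class I promoters, was the lowest of the members. It was at 3.89, 6.74, 5.63 and 9.68 CPM in the Sca-1+ libraries. In the Sca-1- libraries it was at 0.541, 5.03, 8.57, 4.08 and 5.17 CPM. Apart from library 8, where 9 reads were counted, the values of the fractions overlapped, and the log2 fold change of 0.47 (SE 0.61) did not pass the test (adjusted p = 0.56 from edgeR's test). Of 14 transcription factors of class I genes, 6 were higher and 2 lower (all genes tested: 23.3% and 21.4%), with a median of 0.58. The largest difference was in Irf1, an interferon-induced factor that binds the interferon response element, at 473 ± 260 CPM in Sca-1+ ECs (SD, n = 4), against 29.6 ± 20 CPM in Sca-1- cells (SD, n = 5) (log2 fold change 4.0, SE 0.59, adjusted p = 0.00044 from edgeR's test). Rela, a subunit of NF-kB, had 0.89 (SE 0.21) and Rfxap, a subunit of the RFX complex, 0.64 (SE 0.20). The lower factors were Atf1 (-0.74, SE 0.21) and Nfyc, a subunit of the CCAAT-binding factor (-0.55, SE 0.19, named after its values were seen). Several of these calls were fragile: of 21 alternatives, Nfyc lost its call under 9 (library size alone -0.13, adjusted p = 0.73 from edgeR's test), Atf1 under 5, and Rfxap under 7. The count of 6 higher factors fell to 2 without library 13, 8 or 14 and to 3 without library 19. The count of 2 lower factors fell to 0 without library 13 or 15 and to 1 without library 7 or 19.

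The order of the members within a fraction was compared per kilobase of exon, with all annotated exons of a gene joined. This length can exceed that of the transcripts present, which was not tested, so the order depends on the annotation. In Sca-1+ ECs the mean level was 5419 ± 1613 CPM per kb for B2m, 1679 ± 313 for H2-D1, 559 ± 170 for H2-K1 and 198 ± 33.8 for Tapbp (SD, n = 4), and the libraries of these neighbours did not overlap. Psmb8 (88.2 CPM per kb), H2-T23 (47.0), Tap2 (39.1), Psmb9 (28.0) and Tap1 (23.3) followed, each overlapping with the next. Nlrc5 was last in both fractions, at 0.763 and 0.551 CPM per kb. In Sca-1- cells B2m (3418 ± 980 CPM per kb, SD, n = 5) and H2-D1 (1002 ± 440) again led without overlap. H2-K1 (125.9 ± 46.6), H2-T23 (89.6 ± 58.3) and Tapbp (86.7 ± 15.6) came next and could not be ordered beyond the spread between libraries.

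The wider class I family was mixed. Of 19 class Ib and class I-like heavy chains, 15 were tested. Of these, 6 were higher in Sca-1+ ECs and 1 was lower (all genes tested: 23.3% and 21.4%), with a median log2 fold change of 1.44. Hfe, a class I-like regulator of iron uptake, was at 120 ± 20.7 CPM in Sca-1+ ECs (SD, n = 4), against 3.71 ± 2.18 CPM in Sca-1- cells (SD, n = 5), a log2 fold change of 5.01 (SE 0.45). Fcgrt, the neonatal Fc receptor that recycles IgG and also pairs with beta-2-microglobulin, was at 1547 ± 421 CPM in Sca-1+ ECs (SD, n = 4), against 79.8 ± 36.2 CPM in Sca-1- cells (SD, n = 5), a log2 fold change of 4.28 (SE 0.45). H2-M3, which presents formylated peptides, had a log2 fold change of 2.90 (SE 0.47). The 1 lower gene, H2-T24, lies in the same region as H2-T23 (chromosome 17 from 36005695 to 36020560, minus strand) and was at 9.04 ± 4.66 CPM in Sca-1+ ECs (SD, n = 4), against 155 ± 133 CPM in Sca-1- cells (SD, n = 5), a log2 fold change of -4.10 (SE 0.71, adjusted p = 0.0011 from edgeR's test). Like H2-T23, it was highest in libraries 8 and 10, at 213 and 361 CPM.

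Interferon genes were counted in the same fit. Of 10 interferon receptors and signalling genes, 7 were higher and 1 lower in Sca-1+ ECs, and of 24 interferon-stimulated genes, 19 were higher and 3 lower, with medians of 1.68 and 2.08. The receptor chains Ifngr2 (2.29, SE 0.38) and Ifnar2 (2.25, SE 0.25) and the feedback inhibitor Socs1 (2.89, SE 0.44) were higher, and the receptor-bound kinase Jak2 was lower (-2.22, SE 0.35). Among the called genes with an average log2 CPM from 3 up, the interferon-induced GTPases Iigp1 (6.14, SE 0.88), Gbp4 (5.52, SE 0.70) and Gbp3 (4.26, SE 0.46) and the chaperone Rtp4 (3.87, SE 0.56) differed most, and Gbp6, below that level, had 4.16 (SE 0.99). The 3 lower genes were Igtp (-3.20, SE 0.71), Ifit2 (-2.55, SE 0.64) and Ifit1 (-2.38, SE 0.69), named after their values were seen. All 3 were highest in Sca-1- libraries 8 and 10, and the fractions overlapped for Ifit1 and Ifit2. The call of Ifit1 was lost without library 7 (adjusted p = 0.053 from edgeR's test) or 15 (0.055). It was also lost without libraries 8 and 10 (-1.19, adjusted p = 0.059 from the same test). Over the 8 class I and interferon lists together, which hold 9 of the 10 members (all but B2m), 49 of the 96 genes tested were higher and 10 were lower, beside the 23.3% and 21.4% of all genes.

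**Figure D3:**
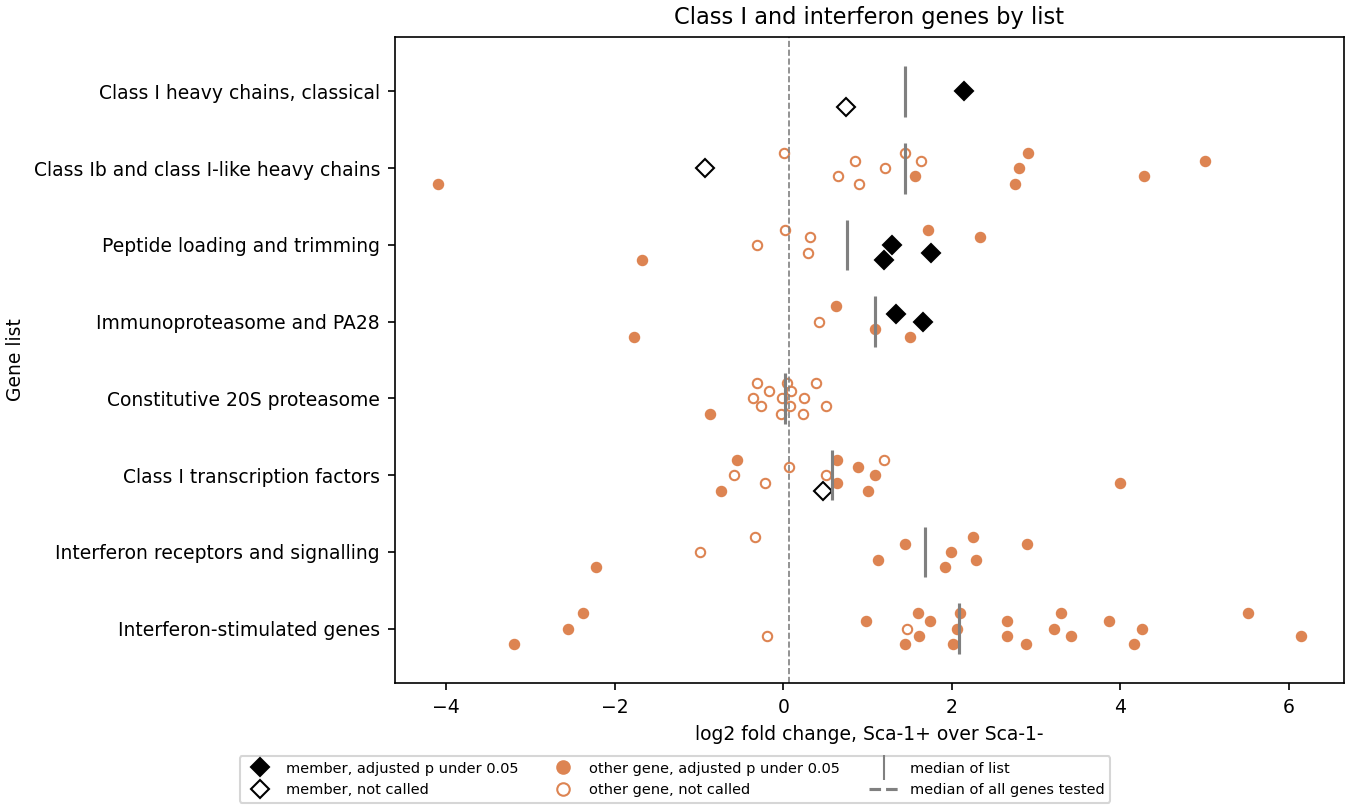
Log2 fold change (Sca-1+ over Sca-1-) of every tested gene in 8 class I and interferon lists, with members as black diamonds, other genes as orange circles, filled where the adjusted p was under 0.05, a grey bar at the median of each list and a dashed line at 0.07, the median of all genes tested. The constitutive 20S genes lie around 0, and most interferon-stimulated genes lie to the right, with TMM scaling.

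Library 19 was the highest Sca-1+ library for all 10 members and library 7 the lowest for 8 of them. Library 19 also stood apart from the other Sca-1+ libraries in some neutrophil genes, with Ngp at 239 CPM, S100a8 at 167 CPM and Ltf at 103 CPM. Each of these was at most 2.35 CPM in libraries 7, 13 and 15. The remaining neutrophil genes, Elane and Mpo, had their highest Sca-1+ values (16.1 and 35.1 CPM) outside library 19. The plasma cell gene Jchain was at 36.4 CPM in library 19 against at most 0.863 CPM in the other Sca-1+ libraries. The 5 neutrophil genes summed to 5.8 to 511 CPM in the Sca-1+ and to 114 to 730 CPM in the Sca-1- libraries. Without library 19, 5 members were higher and the call of Tap1 was lost. Markers of other cells differed between the fractions too. The leukocyte markers summed to 1575 to 3202 CPM in the Sca-1- libraries and to 117 to 194 CPM in the Sca-1+ libraries, with 6 of 8 lower in Sca-1+ ECs. Most of the Sca-1+ sum was Lcp1 (97 to 184 CPM there), which did not pass the test. The defining marker Ptprc (CD45) reached at most 2.56 CPM in the Sca-1+ libraries and was at 17.2 to 47.8 CPM in the Sca-1- libraries. The 4 smooth muscle and pericyte markers, all higher, summed to 201 to 1339 CPM in the Sca-1+ and to 5.86 to 37.1 CPM in the Sca-1- libraries. Of the 4 dendritic cell and macrophage markers, only Cd74, itself a class II gene (the invariant chain), was higher, at 16.1 to 469 CPM against 3.7 to 23.6 CPM. Csf1r (4.32 against 4.83 CPM on average) and Adgre1 (0.528 against 1.87 CPM) did not pass the test, and Flt3 (0.162 against 1.66 CPM) was too low to be tested. The part of these markers and of the megakaryocyte markers in the class I values was not tested. Without libraries 19, 10 and 22, 4 members were higher, and the calls of Psmb9 (log2 fold change 1.22, adjusted p = 0.1) and Tap1 (1.11, adjusted p = 0.13) were lost. Without libraries 8 and 10, 6 members were higher, but they included H2-D1 (1.06, adjusted p = 0.0061) and not Tap1 (0.90, adjusted p = 0.064).

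The direction of a fitted value depended on what a library was scaled to. When libraries were scaled to their general endothelial genes, which are themselves far lower in the Sca-1- fraction, the median of all genes moved to -2.59, 0 members were higher, 6 were lower, and all 10 fitted values were negative (H2-K1 -0.57). Scaled to library size alone, the median was 0.43, 4158 genes were higher and 2431 lower, and H2-D1 (1.24) and B2m (1.11) were also called. Relative to the median of all genes, the same 9 members lay above it and H2-T23 below it under TMM, relative log expression, upper-quartile, library-size and endothelial scaling. Since another scaling shifts the fitted values almost in common, and subtracting the median takes that shift out, this sameness is close to fixed by construction and is no sign of stability. On that relative scale H2-K1 was between 2.01 and 2.10, Tap2 between 1.59 and 1.69, Psmb8 between 1.44 and 1.62, and H2-T23 between -1.06 and -0.64.

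**Figure D4:**
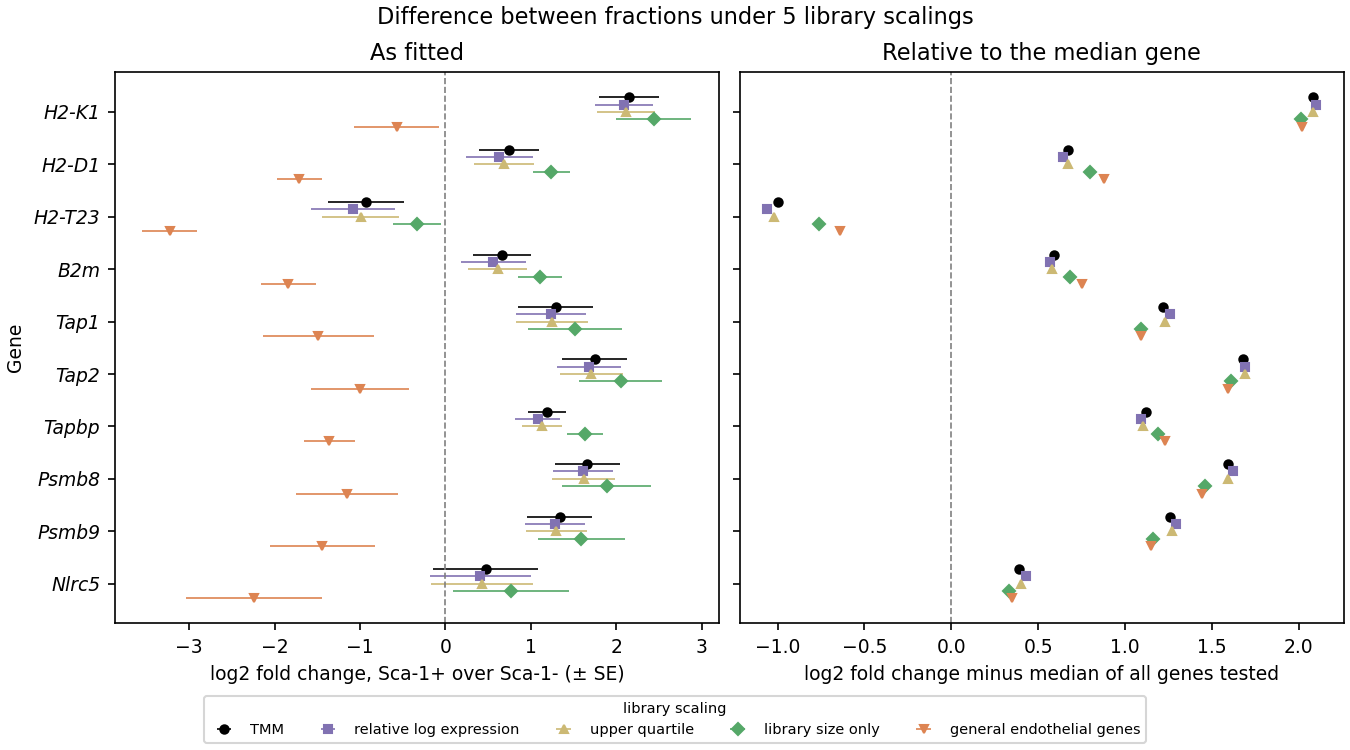
Log2 fold change of the 10 genes under 5 library scalings (colours), at left as fitted with its SE and at right after the median of all genes tested was subtracted. Scaling to general endothelial genes puts all 10 fitted values below 0 at left, while at right, where the common shift is taken out by construction, H2-T23 lies below 0 and the other 9 above it.

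The counting program's use of strand was not stated, so reads of overlapping genes on opposite strands cannot be told apart: Tap1 and Psmb9 overlap each other, Psmb8 and Tap2 overlap Gm20496, Tap2 also overlaps Gm15821, and Tapbp overlaps Gm19412. Of the 50-base words in their annotated transcripts, 9.63% for H2-K1, 12.8% for H2-D1 and 14.5% for H2-T23 also occur in other genes, mostly related heavy chains, against 0% for B2m. The share was 23.2% for Tapbp, 11.9% for Psmb8 and 11.6% for Tap2, mostly with Gm19412, Gm20496 and Gm15821. The levels of such genes are less certain, but a share of words does not give the size of that uncertainty.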

How the data were processed

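The authors deposited raw read counts for the 9 libraries, whole numbers without normalization, made from poly(A) RNA with the SMART-Seq v4 kit, which adds no molecular identifiers, so that floors cover counting error only. The submitters' processing notes name STAR, featureCounts and mm10. Annotation and use of strand are not given in the sources used here. Every sample column was used and groups came from the labels.

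The fit was made with edgeR 4.0.16 in R 4.3.3, after filterByExpr (minimum count 10, minimum total 15) and TMM scaling, as a two-sided quasi-likelihood F-test whose p-values were adjusted by Benjamini-Hochberg over 15937 genes, with 0.05 as threshold. SEs came from the F statistic. A prior count of 2 was used for log2 CPM. The common dispersion was 0.301. On simulated counts for these 15937 genes, 109 of 193 changed genes and 4 unchanged genes were called. Unlike in the data, few genes were changed there, at random in both directions and by large amounts. The simulation thus tests neither the scaling nor the power for smaller differences. Alternatives used DESeq2 1.42.0, limma 3.58.1 voom, other scalings, filters and libraries. Coordinates came from GENCODE M21, which held 45229 of the 46078 identifiers.

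The members, gene lists and tests were chosen with earlier results of these data known. Named genes were every member, up to 4 genes per list with the largest called difference (fractions apart, average log2 CPM from 3 up), the proteasome partners of the ratios, and the 5 genes nearest to B2m. No 2 libraries of a fraction were copies, since chi-square divided by its degrees of freedom was 28.5 to 424.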

Additional observations from a re-analysis of the deposited data

Results flagged for a closer look

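Of 36 sets of libraries examined for a library far from the others (10 members and 8 ratios in each fraction), 2 were flagged by Dixon's test, and chance flags about 1 in 20. Nlrc5 was at -0.69 log2 CPM in Sca-1- library 8, where the other 4 libraries lay between 2.06 and 3.11. The log2 ratio H2-D1/B2m was 0.27 in Sca-1+ library 7, where the other 3 lay between -0.22 and -0.16.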

How the results depend on the processing

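Scaling to general endothelial genes changed the most: 490 genes were higher and 11801 lower, 0 members were higher and 6 lower, and 5 class I and interferon genes were higher and 56 lower. It turned 19 named values negative: H2-K1 -0.57, H2-D1 -1.71, B2m -1.84, Tap1 -1.49, Tap2 -1.0, Tapbp -1.36, Psmb8 -1.15, Psmb9 -1.44, Nlrc5 -2.24, Tapbpl -0.40, Erap1 -1.12, Psmb10 -1.24, Rela -1.79, Rfxap -2.02, Ifngr2 -0.52, Ifnar2 -0.54, Psmb6 -2.31, Psme2 -1.65 and Pomp -2.08. No other alternative reversed a member. H2-K1, Tap2 and Psmb8 stayed called under each of the other 20 alternatives, and Tap1 lost its call under 7. In the 9 fits that left out 1 library each, 5 to 6 members were higher and 0 lower. Among all genes, 3098 to 3708 were higher and 2859 to 3577 lower in these fits. The log2 fold change of H2-K1 ranged from 1.90 to 2.32.

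With 6 libraries (without 19, 10 and 22) no exact test could pass, since 3 against 3 cannot go below 0.1, and the ratios were 2.38 for Psmb8/Psmb5, 1.93 for Psmb10/Psmb7, 1.57 for H2-K1/B2m, -1.38 for H2-T23/B2m and 1.27 for H2-K1/H2-D1. Leaving out 1 library, the differences ranged from 2.27 to 2.89 for Psmb8/Psmb5, 1.77 to 1.98 for Psmb10/Psmb7, 1.29 to 1.72 for H2-K1/B2m, -1.61 to -1.21 for H2-T23/B2m, 1.11 to 1.60 for H2-K1/H2-D1 and 0.68 to 1.28 for Psmb9/Psmb6. Calls of ratios were lost only without a Sca-1+ library (3 against 5, smallest p 0.018), and Psmb9/Psmb6 passed without library 7 (adjusted p = 0.048).

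The end numbers of the titles are not shared between the fractions, and only libraries 15 and 16 share another title number, so the reported test was not paired. With consecutive numbers (7 and 8, 13 and 14, 15 and 16) as a replicate block, 2265 genes were higher and 2075 lower, 4 members were higher, 5 class I and interferon genes were lower, and Tap1 (adjusted p = 0.087) and Tapbp (0.053) lost their calls; the cause was not tested. The deviations of these pairs correlated at 0.147, 0.148 and 0.042, and each of libraries 7, 13 and 15 correlated best with its next number, a hint from the data and not the design. With libraries 15 and 16, which share that number, as a block, 6 members were higher, 1 class I transcription factor was lower, and Pomp (adjusted p = 0.057) and Nfyc (0.053) lost their calls.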

Other observations

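Class II genes, which present peptides to CD4 T cells and are high in dendritic cells and B cells, were also counted. Of the 8 class II genes tested, 4 were higher in Sca-1+ ECs and 1 was lower (all genes tested: 23.3% and 21.4%). Their median log2 fold change was 2.11. H2-Ab1 was at 84.4 ± 71.7 CPM in Sca-1+ ECs (SD, n = 4), against 9.21 ± 5.69 CPM in Sca-1- cells (SD, n = 5), and H2-Aa at 33.7 ± 36.5 CPM in Sca-1+ ECs (SD, n = 4), against 1.97 ± 2.04 CPM in Sca-1- cells (SD, n = 5). Without library 19 the call of H2-Aa was lost (adjusted p = 0.056 from edgeR's test). Within the Sca-1+ fraction the class II genes together ranged from 60.9 CPM to 845 CPM per library, where the 10 class I genes ranged from 8829 CPM to 15754 CPM.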
